A study of Mus musculus with 17 samples.

Results

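The insulin-like growth factor (IGF) genes of the mouse heart were examined as 10 genes chosen by name, with earlier results of these data known. They were the ligands Igf1 and Igf2, the receptors Igf1r and Igf2r, and the binding proteins Igfbp2, Igfbp3, Igfbp4, Igfbp5, Igfbp6 and Igfbp7. All 10 had a row among the 31647 features of the count table. RNA came from hearts of male C57BL/6J wild-type mice aged 8 to 11 weeks, and no mouse carried a transgene or an engineered allele. The IZ group consisted of infarct zones from 9 hearts, collected on day 5 after permanent ligation of the LAD, the left anterior descending branch of the coronary arteries, and picked at random from 12 ligated mice. The control group consisted of left ventricles from 8 mice that had sham surgery without ligation. Transcripts were counted by massive analysis of cDNA ends (MACE), which reads the 3′ end of each polyadenylated RNA, so a count stands for 1 molecule end and is not divided by transcript length.

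IGF1 and IGF2 are small secreted proteins that drive growth, survival and matrix production. Both signal through IGF1R, a receptor tyrosine kinase of the insulin receptor family, whereas IGF2R, the cation-independent mannose 6-phosphate receptor, carries IGF2 to the lysosome and has no kinase. Secreted binding proteins hold the ligands in plasma and in the matrix, and proteases that cut them set the ligand free. In the heart, IGF1 is known as a growth and survival factor for cardiomyocytes, and fibroblasts and macrophages are known sources of it.

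Total counts ran from 1820809 to 4257919 in sham and from 1237675 to 4738307 in the IZ. Levels are given as CPM, counts relative to the TMM-scaled library size. Marker lists differed widely between the groups: 8 of 8 cardiomyocyte genes were called lower in the IZ, and 6 of 8 fibroblast genes, 6 of 6 myofibroblast genes and 8 of 8 macrophage genes were called higher, with 1 fibroblast gene lower. Over all genes tested, 36.3% were called higher and 33.1% lower. Of the endothelial markers 3 of 6 were lower, and their sum ran from 1419 to 2582 CPM in sham and from 567 to 1142 CPM in the IZ. Of the mural cell markers 4 of 6 were lower and 1 higher, and their sum ran from 505 to 717 CPM in sham and from 238 to 467 CPM in the IZ. In bulk tissue, fewer cells of a type and less RNA per cell cannot be told apart, and the part of cell makeup in the values below was not tested. Mesothelial and adipocyte marker sums ran up to 114 and 41.9 CPM in the IZ, with IZ medians of 14.5 and 0.363 CPM. In sham they reached at most 20.4 and 6.21 CPM. IZ replicate 1 had 10.1 and 0 CPM of them, and stood apart in other ways. Its cardiomyocyte markers summed to 26803 CPM against 2672 to 6356 CPM in the other 8 IZ libraries and 60582 to 72809 CPM in sham, and its macrophage markers to 2435 CPM against 3941 to 5898 CPM in the other 8. Mitochondrially encoded genes took 19.5% of its counts, 4.22 to 6.78% in the other 8 and 22.9 to 32.4% in sham. Log2 fold changes without this library are given below for Igf2r, Igfbp4, Ghr, Cish, Insr, Grb14 and Tsc2. For other genes they are given with it, also where it was the lowest IZ library. Examples are Lrp1 (219 CPM against at least 329 CPM in the others), Adam12 (17.4 against 29.4), Adam9 (50.4 against 65.7), Pik3cd (11.6 against 23.8) and M6pr (42.4 against 55.3).

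Of the 10 IGF genes, 9 had enough counts for the test across genes. By edgeR, with an adjusted p under 0.05 as the threshold, 5 were higher in the IZ (Igf1, Igf2r, Igfbp3, Igfbp4, Igfbp7), 1 was lower (Igf2) and 3 were not called (Igf1r, Igfbp5, Igfbp6). Over all 12301 genes tested 69.5% were called, 36.3% higher and 33.1% lower, so a call by itself is common in this contrast. The median log2 fold change was 0.52 for the 9 IGF genes and 0.05 for all genes tested. Of the 9 tested genes, Igf1, Igfbp4 and Igfbp7 had every IZ library above every sham library, and none lay wholly below. Over all genes tested the shares were 16.6% and 16.5%. Igfbp2, which was not tested and is outside that background, also lay above, but only by 1.08 CPM against 1.04 CPM. A call with at least a 2-fold difference was met upwards by 4 of the 9 (Igf1, Igfbp3, Igfbp4 and Igfbp7) and downwards by 1 (Igf2), against 19.3% and 18.3% of all genes tested. Igfbp4 and Igf2 were close to that limit. Igfbp4 stood at 0.90 on the log2 scale without IZ replicate 1, and Igf2 stood between -1.16 and -0.95 when any 1 library was left out. With libraries scaled by total counts alone, the median of all genes moved up by 1.07 on the log2 scale, and 9176 genes were called higher and 1534 lower in place of 4470 and 4074. On that scale 8 of the 9 IGF genes were called higher and 0 lower. Directions below are thus relative to the bulk of genes. Turns of sign on that scale were followed for the genes named below only, not for every gene of the lists.

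**Figure D1:**
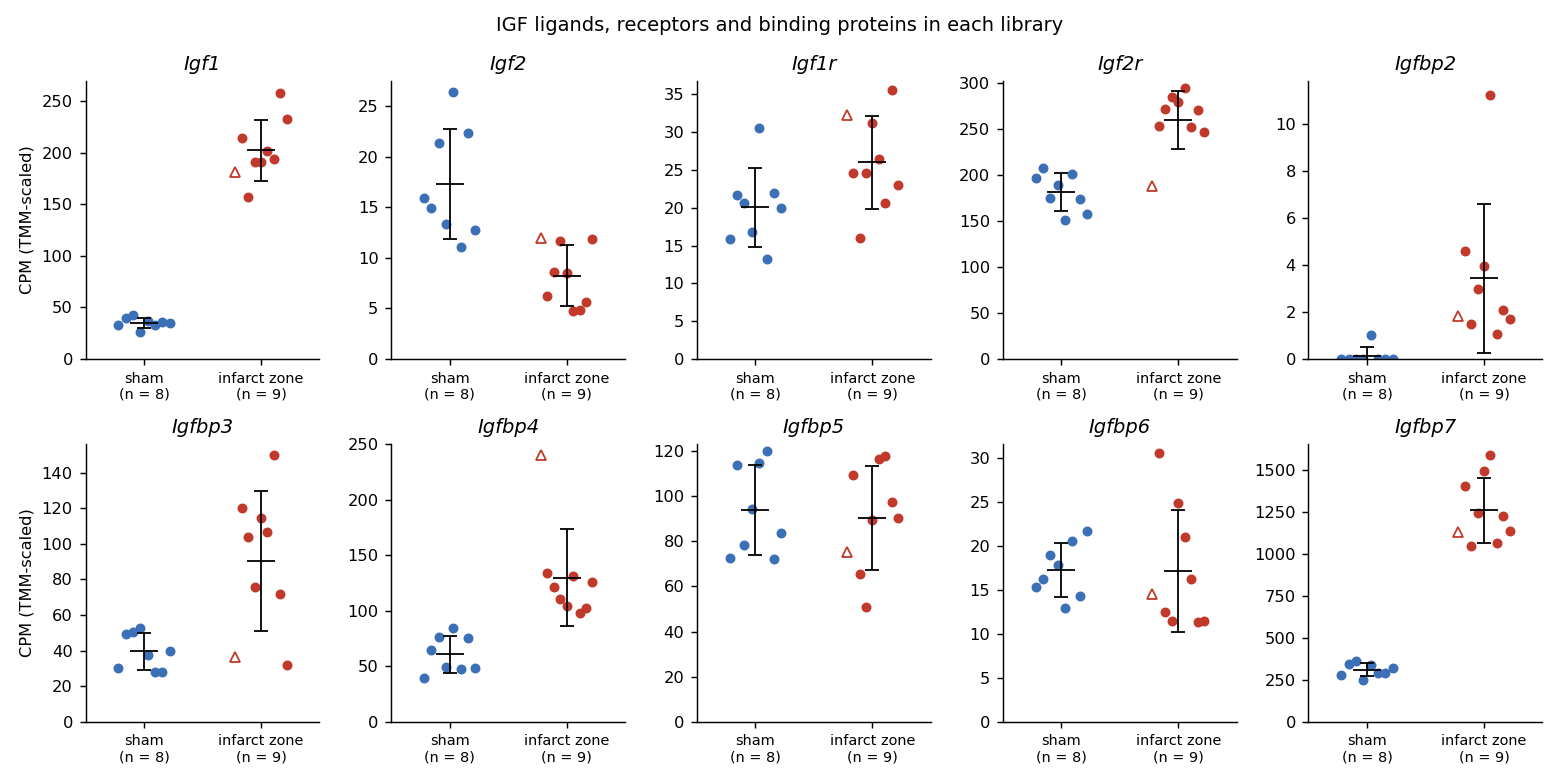
Level of each of the 10 IGF genes in every library, in TMM-scaled CPM on linear axes that start at 0 and differ between panels, for 8 sham libraries (blue) and 9 IZ libraries (red). Bars show the mean and SD, and the open triangle is IZ replicate 1. Igf1 and Igfbp7 separate the groups with wide gaps, while Igfbp5 and Igfbp6 overlap; the lower position of Igf2 in the IZ turns to a log2 difference of 0.02 with total counts alone.

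Igf1, the main ligand of IGF1R (chr10:87858265-87937042, plus strand, mm10, ENSMUSG00000020053), had the largest fold change among the 9 tested IGF genes. Its level was 26.2 CPM in the lowest sham library, 34.9 CPM at the median and 42.8 CPM in the highest. In the IZ it was 157 CPM in the lowest library, 194 CPM at the median and 258 CPM in the highest. The groups were far apart, with the lowest IZ library well above the highest sham library. Mean levels were 35.1 ± 4.90 CPM (SD, n = 8) in sham and 202 ± 29.5 CPM (SD, n = 9) in the IZ, a 5.76-fold difference. The log2 fold change was 2.53 ± 0.12 (SE, adjusted p = 2.44e-13, edgeR). The spread relative to the mean was alike in both groups, 14.0% in sham and 14.6% in the IZ. IZ replicate 1, which had the lowest macrophage and fibroblast marker sums of the IZ, had 181 CPM. Among the IZ libraries only replicate 3 was lower, at 157 CPM.

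Igf2, the fetal ligand that also binds IGF2R (chr7:142650766-142666816, minus strand, ENSMUSG00000048583), went the other way. Sham libraries ran from 11.03 CPM over a median of 15.4 CPM to 26.4 CPM. IZ libraries ran from 4.72 CPM over a median of 8.50 CPM to 11.96 CPM. The groups overlapped in a narrow band: 6 of 9 IZ libraries lay below the lowest sham library, and the other 3 lay just above it. Mean levels were 17.3 ± 5.45 CPM (SD, n = 8) and 8.23 ± 3.02 CPM (SD, n = 9), and the log2 fold change was -1.05 ± 0.22 (SE, adjusted p = 2.12e-04, edgeR), which became 0.02 when libraries were scaled by total counts alone. Counts behind these levels were small, 15 to 58 in sham and 9 to 59 in the IZ. The last 500 bases of the Igf2 transcript are identical to Gm49394, an annotated gene on the same strand that spans the locus, so its reads cannot be told apart from those of Igf2.

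Within a library the ligand counts can be compared without any scaling between libraries. Igf1 made up 67.5 ± 5.83% (SD, n = 8) of the summed Igf1 and Igf2 counts in sham and 96.0 ± 1.59% (SD, n = 9) in the IZ. The lowest IZ library had 93.8% and the highest sham library 75.0%, so the groups did not overlap. An exact two-sided permutation test compared the mean shares over the 24310 possible splits, and p was 4.11e-05, the smallest this design can give, and 8.23e-05 after adjustment over 8 shares. The change in ligand makeup thus held on a scale that does not depend on how libraries are normalised. H19, the untranslated RNA that lies beside Igf2 and is imprinted in the opposite parental direction, ran from 8.09 to 21.6 CPM in sham and from 60.2 to 219 CPM in the IZ. Its log2 fold change was 2.97 ± 0.21 (SE, adjusted p = 2.78e-11, edgeR), with all 9 IZ libraries above every sham library. The neighbours of this imprinted locus therefore had log2 fold changes of opposite sign with TMM, while with total counts alone Igf2 stood near 0 and H19 at 4.05.

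The receptor genes had smaller fold changes than Igf1. Igf1r, the signalling receptor (chr7:67952827-68233668, plus strand, ENSMUSG00000005533), had 13.2 CPM in the lowest sham library, 20.3 CPM at the median and 30.5 CPM in the highest. IZ libraries had 15.99 CPM at the lowest, 24.6 CPM at the median and 35.6 CPM at the highest. The groups overlapped broadly, and 3 of 9 IZ libraries lay above the highest sham library. The log2 fold change of 0.35 ± 0.17 (SE, adjusted p = 0.0740, edgeR) did not pass the threshold. It passed in 5 of 25 alternative fits, which were upper quartile scaling, total counts alone, and the fits without sham replicate 5 (0.45), without IZ replicate 3 (0.45) or without IZ replicate 7 (0.39). A higher Igf1r level in the IZ was thus not settled by these libraries.

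Igf2r, the clearance receptor (chr17:12682406-12769664, minus strand, ENSMUSG00000023830), rose modestly. Sham libraries ran from 151 CPM over a median of 182 CPM to 207 CPM. IZ libraries ran from 187 CPM over a median of 271 CPM to 294 CPM. The single IZ library within the sham range was replicate 1, and the other 8 lay between 247 and 294 CPM, all above the highest sham library. The log2 fold change was 0.52 ± 0.11 (SE, adjusted p = 2.30e-04, edgeR), and 0.54 without IZ replicate 1. Igf2r as a share of the summed Igf1r and Igf2r counts was 89.9 ± 3.26% (SD, n = 8) in sham and 90.8 ± 2.64% (SD, n = 9) in the IZ, a difference smaller than the spread between libraries (p = 0.538, exact two-sided permutation test). Airn, which overlaps Igf2r on the opposite strand, had 3.73% of the Igf2r counts in sham and 1.69% in the IZ.

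Among the binding proteins, Igfbp7, Igfbp3 and Igfbp4 rose and Igfbp5 and Igfbp6 were not called. Igfbp7 encodes a secreted matrix protein of low IGF affinity, whereas IGFBP3, the main carrier in plasma, and IGFBP4, a substrate of the protease PAPP-A, bind IGFs with high affinity. The 250 bases before the start site of these 3 genes are shown, since they are the binding proteins that were called higher. The sequences are from RefSeq on GRCm38.p6, 5′ to 3′ on the strand of the gene: Igfbp3 at chr11:7213924-7214173 (minus strand), Igfbp4 at chr11:99040994-99041243 (plus strand) and Igfbp7 at chr5:77408046-77408295 (minus strand). Capitals mark matches, on either strand, to the TATA box TATAAA, the CCAAT box CCAAT, the GC box GGGCGG or the AP-1 site TGANTCA.
Igfbp3: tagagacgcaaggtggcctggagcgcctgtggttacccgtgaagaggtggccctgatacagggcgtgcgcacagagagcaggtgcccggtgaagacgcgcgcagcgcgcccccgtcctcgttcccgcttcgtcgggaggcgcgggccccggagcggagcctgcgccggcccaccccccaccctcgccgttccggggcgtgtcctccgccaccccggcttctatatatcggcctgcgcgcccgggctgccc
Igfbp4: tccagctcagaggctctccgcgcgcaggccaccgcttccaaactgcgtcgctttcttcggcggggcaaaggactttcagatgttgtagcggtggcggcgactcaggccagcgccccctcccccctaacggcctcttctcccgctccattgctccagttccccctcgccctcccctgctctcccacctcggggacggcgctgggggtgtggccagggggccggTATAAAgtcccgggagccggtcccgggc
Igfbp7: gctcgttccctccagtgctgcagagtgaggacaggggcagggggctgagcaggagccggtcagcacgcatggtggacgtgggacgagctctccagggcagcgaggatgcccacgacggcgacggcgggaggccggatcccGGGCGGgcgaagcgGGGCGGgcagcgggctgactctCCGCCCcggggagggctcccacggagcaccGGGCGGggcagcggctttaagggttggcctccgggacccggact
The 3 windows shared no motif. The Igfbp4 window held 1 TATA box, from 28 to 23 bases before the start, a motif found in 12.4% of 32851 mouse promoter windows of the same length. The Igfbp7 window held 4 GC boxes and no TATA box, and 32.7% of all windows held at least 1 GC box. The Igfbp3 window held none of the 4 motifs. CCAAT and the AP-1 letters, which were found in 33.8% and 6.75% of all windows, were in none of the 3.

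Igfbp7 (chr5:77349240-77408041, minus strand, ENSMUSG00000036256) had 250.4 CPM in the lowest sham library, 307 CPM at the median and 361 CPM in the highest. IZ libraries had 1049 CPM at the lowest, 1224 CPM at the median and 1590 CPM at the highest. The groups did not overlap. Mean levels of 310.0 ± 37.9 CPM (SD, n = 8) and 1260 ± 194 CPM (SD, n = 9) gave a 4.07-fold difference, with a log2 fold change of 2.02 ± 0.14 (SE, adjusted p = 2.33e-11, edgeR). The 3′ end of Igfbp7 overlaps that of Polr2b on the opposite strand. Polr2b counts were 11.1% of the Igfbp7 counts in sham and 2.69% in the IZ, and whether the counting used strand was not given in the sources used here.

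Igfbp3 (chr11:7206086-7213923, minus strand, ENSMUSG00000020427) was the most variable of the 3 called binding proteins in the IZ, with a coefficient of variation of 43.7%. Sham libraries ran from 27.9 CPM over a median of 38.6 CPM to 53.0 CPM. IZ libraries ran from 32.1 CPM over a median of 104 CPM to 150.2 CPM. IZ replicates 1 and 9, at 36.2 and 32.1 CPM, lay within the sham range, and the other 7 lay above it, from 71.8 CPM upwards. The log2 fold change was 1.19 ± 0.25 (SE, adjusted p = 2.20e-04, edgeR), and it stayed between 1.09 and 1.33 when any 1 library was left out.

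Igfbp4 (chr11:99041244-99054392, plus strand, ENSMUSG00000017493) ran from 39.4 CPM over a median of 56.8 CPM to 84.4 CPM in sham. In the IZ it ran from 97.6 CPM over a median of 121 CPM to 241 CPM. The groups did not overlap, but the highest value belonged to IZ replicate 1, and the next highest IZ library had 134 CPM. The log2 fold change was 1.10 ± 0.18 (SE, adjusted p = 1.19e-05, edgeR) with that library and 0.90 without it. A stretch of 144 bases at the end of the Igfbp4 transcript matched Ctdspl2 at 95.1% identity, so a part of the reads could be shared.

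Igfbp2, a binding protein of fetal tissue and liver (chr1:72824503-72852474, plus strand, ENSMUSG00000039323), was near the limit of detection. It had 0 counts in 7 of 8 sham libraries and 2 counts in sham replicate 5. Each IZ library had between 2 and 33 counts, and the levels ran from 1.08 CPM over a median of 2.07 CPM to 11.3 CPM, with the highest in IZ replicate 6. Every IZ library lay above every sham library, although the lowest IZ level was close to the 1.04 CPM of sham replicate 5. The gene did not pass the filter on low counts. Against a floor of 3 counts in each sham library, 1.79 CPM on average, the IZ mean of 3.44 CPM was at least 1.92-fold higher. That mean includes the 11.3 CPM of IZ replicate 6, while the IZ median was 2.07 CPM. IZ replicates 3, 7 and 9, at 1.48, 1.08 and 1.69 CPM, lay below that floor. Igfbp2 was tested and called higher in 2 alternative fits, the Wald test of DESeq2 and edgeR with no filter on low counts. Their fitted fold changes depend on how counts of 0 are handled. With 0 counts in 7 of 8 sham libraries, these calls rest on the IZ counts and add no separate support.

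Igfbp5 and Igfbp6, binding proteins with a preference for IGF2 in the case of IGFBP6 and with strong matrix binding in the case of IGFBP5, overlapped between the groups. Igfbp5 (chr1:72857932-72874884, minus strand, ENSMUSG00000026185) ran from 72.0 CPM over a median of 89.1 CPM to 119.8 CPM in sham, and from 51.1 CPM over a median of 90.2 CPM to 118 CPM in the IZ. Its log2 fold change was -0.06 ± 0.16 (SE, adjusted p = 0.771, edgeR). Igfbp6 (chr15:102144362-102149511, plus strand, ENSMUSG00000023046) ran from 12.9 CPM over a median of 17.1 CPM to 21.7 CPM in sham, and from 11.4 CPM over a median of 14.5 CPM to 30.6 CPM in the IZ. Its log2 fold change was 0.01 ± 0.21 (SE, adjusted p = 0.970, edgeR). The IZ libraries of Igfbp6 scattered more, with a coefficient of variation of 40.4% against 17.8% in sham. With total counts alone, Igfbp5 and Igfbp6 stood at 1.03 and 1.09 and were called higher, close to the shift of 1.07 of the median gene.

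**Figure D2:**
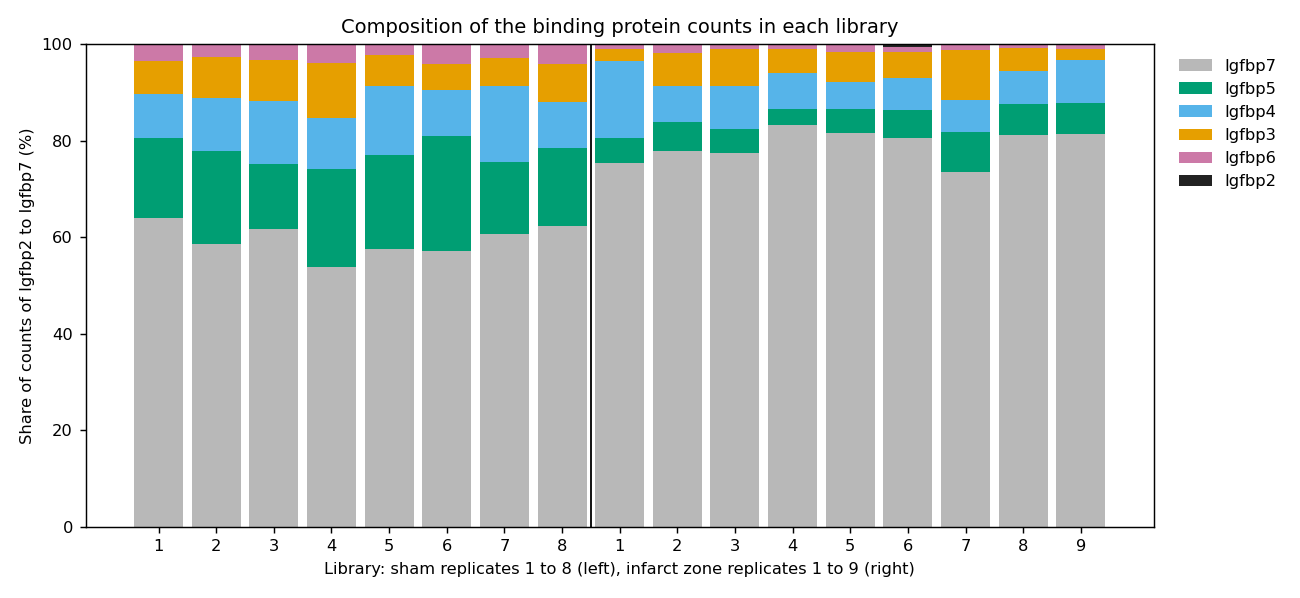
Share of each binding protein gene in the summed counts of Igfbp2 to Igfbp7, in percent, as stacked bars for the 8 sham libraries on the left and the 9 IZ libraries on the right. Igfbp7 takes 53.9 to 64.0% in sham and 73.6 to 83.2% in the IZ, while the Igfbp5 share is smaller in each IZ library than in any sham library.

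The makeup of the binding protein counts shifted towards Igfbp7. Shares within a library do not depend on scaling between libraries, but they sum to 100%, so a lower share is not a lower level. Igfbp7 took 59.5 ± 3.28% (SD, n = 8) of the summed Igfbp2 to Igfbp7 counts in sham and 79.1 ± 3.20% (SD, n = 9) in the IZ. Igfbp5 took 18.0 ± 3.32% and 5.69 ± 1.34%, and Igfbp6 took 3.35 ± 0.695% and 1.05 ± 0.309%. The groups did not overlap for any of these 3 shares (adjusted p = 8.23e-05 each, exact two-sided permutation test). The Igfbp2 share was 0.0219 ± 0.0620% in sham and 0.200 ± 0.150% in the IZ (adjusted p = 0.00132, exact permutation test), with 4 of 9 IZ libraries above every sham library, and the call was lost when medians were compared. The Igfbp4 share of 11.5 ± 2.46% in sham and 8.30 ± 3.10% in the IZ passed narrowly (adjusted p = 0.0453, exact permutation test). It lost the call in 13 of 18 alternatives, namely when sham replicate 2, 3, 4, 5 or 7 or any of IZ replicates 2 to 9 was left out. The Igfbp3 share was 7.60 ± 1.92% and 5.66 ± 2.52% (adjusted p = 0.113, exact permutation test). Thus Igfbp3 and Igfbp4 were called higher in level while their shares were lower or not called.

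Other genes of the pathway were taken from lists of 67 genes with the 10 IGF genes left out. Of the 58 tested, 18 were called higher, 25 lower and 15 not called, with a median log2 fold change of -0.16. Over all genes tested 69.5% were called, 36.3% higher and 33.1% lower. These shares stand as background here and for each list below. Every IZ library lay above every sham library for 16.6% of all genes tested, and below for 16.5%. With total counts alone, 42 were called higher and 4 lower.

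**Figure D3:**
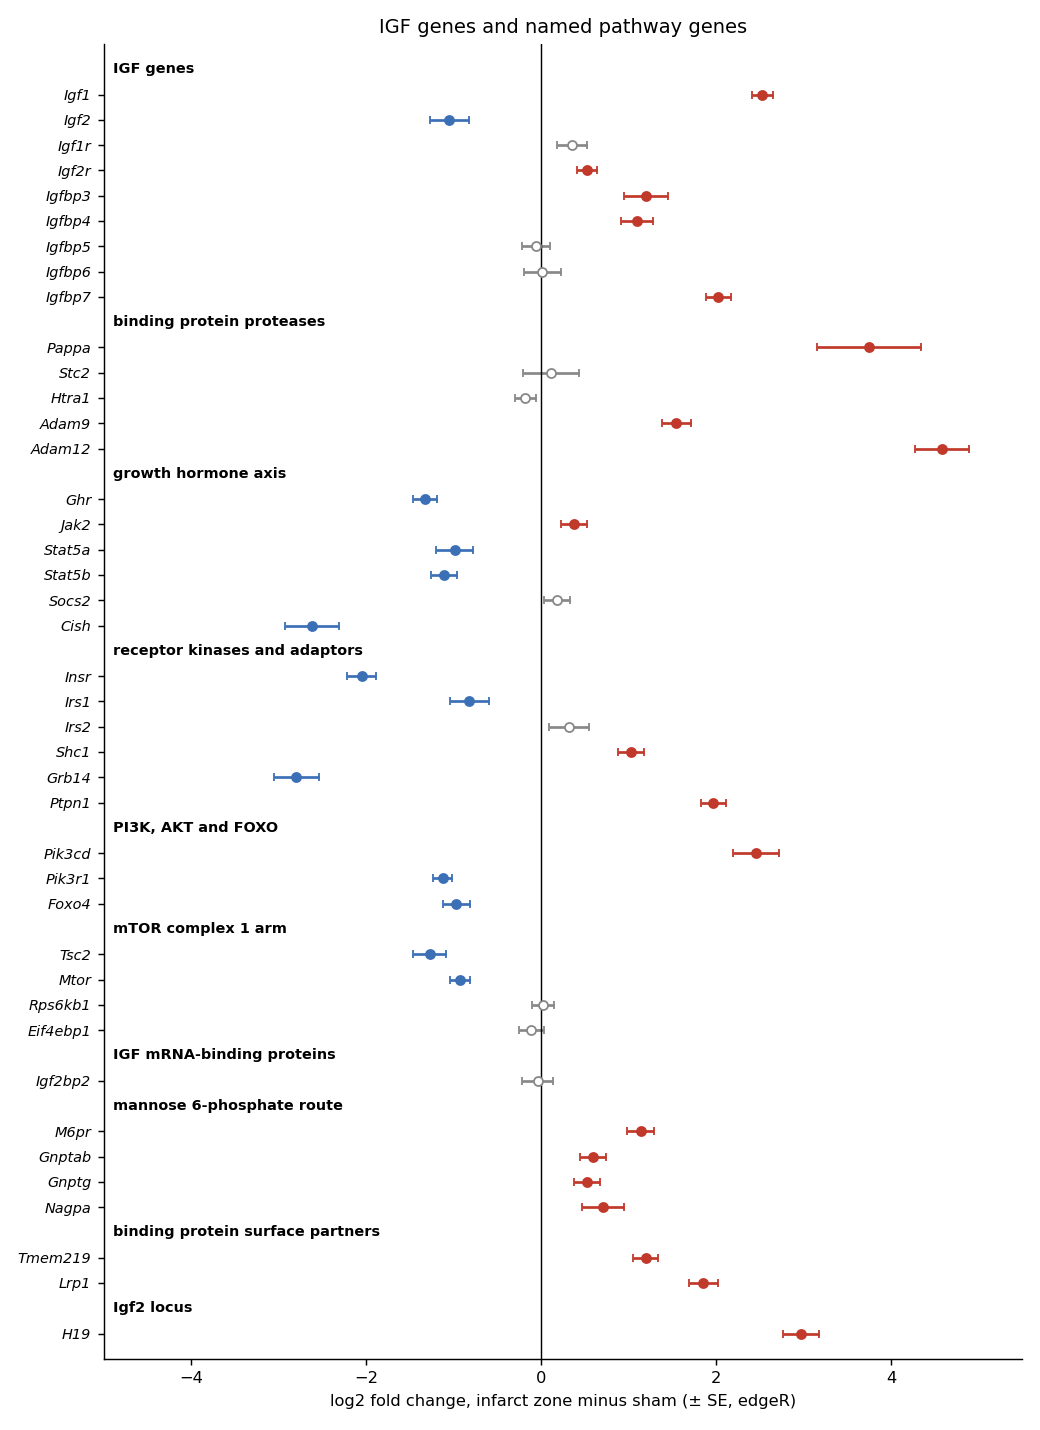
Log2 fold change, IZ minus sham, with its SE (edgeR, TMM) for the 9 tested IGF genes and the named genes of the pathway lists. Red and blue points passed an adjusted p of 0.05 upwards and downwards, open grey points did not; with total counts alone the blue points of Igf2, Stat5a, Irs1, Foxo4 and Mtor moved above 0, by 0.02 to 0.25.

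Of the proteases that cut binding proteins and their inhibitors, 5 of 7 were tested, 3 were higher and 0 lower. Over all genes tested 36.3% were called higher and 33.1% lower. Pappa encodes PAPP-A, the protease of IGFBP4 and IGFBP5. It had 0 counts in 5 of 8 sham libraries and at most 5 counts in the others, against 4 to 97 counts in the IZ. Its level had a median of 0 in sham and 7.61 CPM in the IZ, and 8 of 9 IZ libraries lay above the highest sham library. The log2 fold change was 3.74 ± 0.59 (SE, adjusted p = 6.49e-06, edgeR), and it was 0.86 higher without sham replicate 5, so its size rests on a few sham counts. Pappa passed the filter on low counts only through the IZ. It passed in 15 of 25 alternative fits and was called in all 15, which is thus no separate support. Adam12, a metalloprotease that cuts IGFBP3 and IGFBP5, had 1 to 5 counts per sham library and 48 to 354 in the IZ. It thus passed the filter on low counts only through the IZ. Its level ran from 0.547 to 3.68 CPM in sham and from 17.4 to 58.6 CPM in the IZ. The log2 fold change was 4.58 ± 0.31 (SE, adjusted p = 1.55e-11, edgeR), and its size rests on few sham counts. Adam9 ran from 14.3 to 38.5 CPM and from 50.4 to 104 CPM, with a log2 fold change of 1.54 ± 0.17 (SE, adjusted p = 2.08e-08, edgeR). Both metalloprotease genes had every IZ library above every sham library, as did 16.6% of all genes tested. Htra1, a secreted serine protease (-0.18, adjusted p = 0.167), and Stc2, an inhibitor of PAPP-A (0.11, adjusted p = 0.775), were not called. Stc1, a related inhibitor, and Pappa2 had too few counts for the test.

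The other carriers of IGF in plasma were scarcely detected. Igfals, the acid-labile subunit that completes the circulating complex with IGFBP3, had 4 to 8 counts per sham library and 0 to 8 in the IZ, with 2.07 to 5.15 CPM against 0 to 1.45 CPM, and was not tested. Igfbpl1 had at most 3 counts in any library. Igfbp1 was not analysed here.

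The growth hormone axis, which drives Igf1 in liver through GHR, JAK2 and STAT5, had 6 tested genes, of which 1 was higher and 4 lower, and 2 and 2 with total counts alone. Ghr, the growth hormone receptor, ran from 81.7 to 138 CPM in sham and from 31.7 to 64.5 CPM in the IZ, with the highest IZ value in replicate 1. The groups did not overlap, and the log2 fold change was -1.33 ± 0.14 (SE, adjusted p = 1.25e-08, edgeR). Cish, a feedback inhibitor induced by STAT5, ran from 37.3 to 124 CPM in sham and from 4.88 to 31.2 CPM in the IZ. Its log2 fold change was -2.62 ± 0.31 (SE, adjusted p = 1.09e-07, edgeR). Here too the highest IZ value was that of replicate 1, and the other 8 IZ libraries had 4.88 to 16.3 CPM. Without replicate 1 the log2 fold changes of Ghr and Cish were -1.46 and -3.03. Stat5b fell by 1.11 and Stat5a fell by 0.99 on the log2 scale (adjusted p = 4.40e-07 and 2.12e-04, edgeR), but with total counts alone they stood at -0.04 and 0.08 and were not called. Ghr and Cish kept their call downwards on that scale as well, but their log2 fold changes shrank to -0.27 and -1.60. The highest adjusted p of Ghr over the 25 alternative fits was 0.0379 (edgeR). Jak2 was higher by 0.38 ± 0.15 (SE, adjusted p = 0.0301, edgeR) and lost the call in 5 of 25 alternatives, each the omission of 1 library (sham replicates 5, 6, 7 or 8, or IZ replicate 3). Socs2, another STAT5 target, was not called (0.18, adjusted p = 0.306). Igf1 was higher in the same libraries in which Ghr and Cish were lower.

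**Figure D4:**
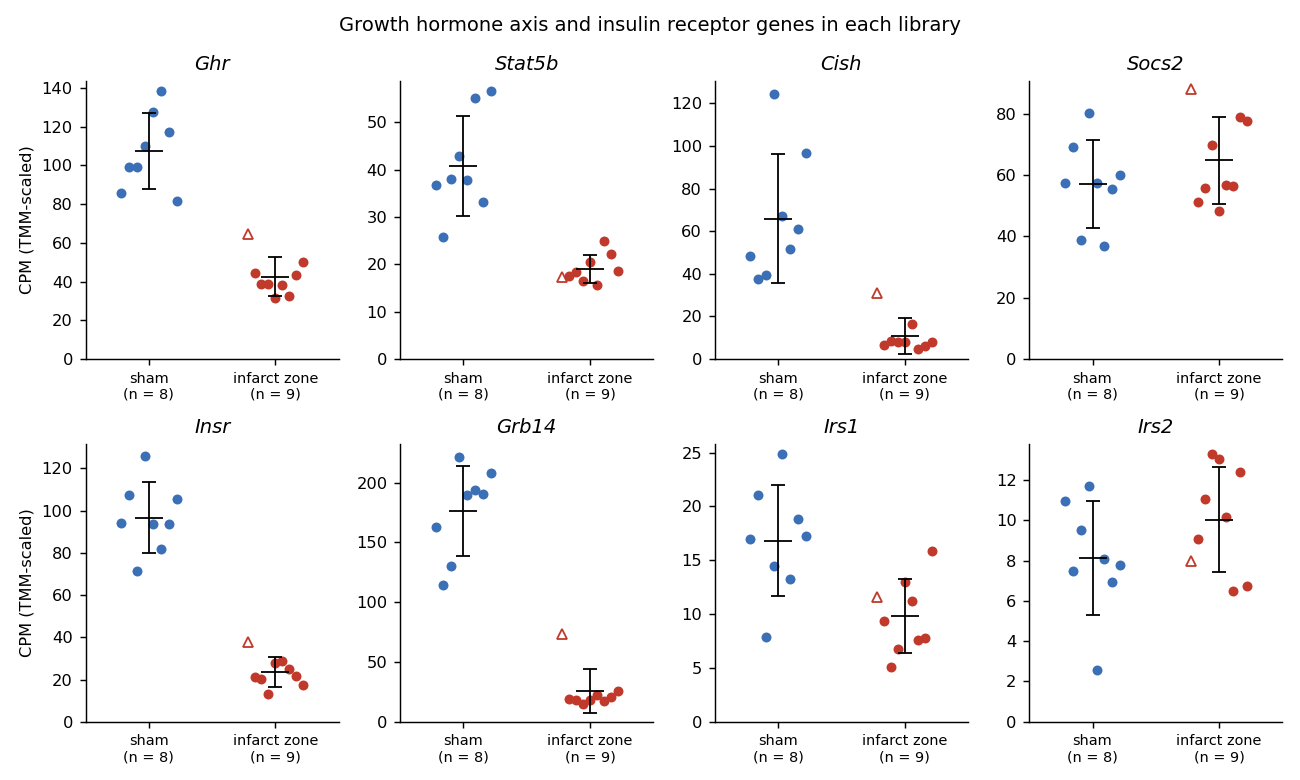
Levels of 4 growth hormone axis genes (top) and 4 genes around the insulin receptor (bottom) in every library, in TMM-scaled CPM on linear axes from 0, with 8 sham (blue) and 9 IZ libraries (red), mean and SD as bars, and IZ replicate 1 as an open triangle. Ghr, Cish, Insr and Grb14 do not overlap between groups, and IZ replicate 1 is the highest IZ library for all 4; Irs1 is lower with TMM but stands at 0.25 (log2) with total counts alone, and Stat5b at -0.04.

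Receptor kinases and adaptors had 11 tested genes, 3 higher and 5 lower. Insr, the insulin receptor, which can also pair with IGF1R into hybrid receptors, ran from 71.3 to 126 CPM in sham and from 13.1 to 37.7 CPM in the IZ. Its log2 fold change was -2.06 ± 0.16 (SE, adjusted p = 1.87e-10, edgeR), so that Insr fell while Igf1r was not called. Grb14, an adaptor that inhibits the insulin receptor, ran from 114 to 222 CPM in sham and from 14.6 to 73.6 CPM in the IZ. Its log2 fold change was -2.80 ± 0.26 (SE, adjusted p = 2.05e-09, edgeR), and the 8 IZ libraries other than replicate 1 had at most 25.3 CPM. Without that library Grb14 stood at -3.22 and Insr at -2.21. Irs1, the docking protein of both receptors, fell by 0.83 (adjusted p = 0.00222, edgeR), with a value of 0.25 and no call with total counts alone, and Irs2 was not called (0.32, adjusted p = 0.223). Upwards, the phosphatase gene Ptpn1 rose by 1.97 ± 0.15 (SE, adjusted p = 6.40e-11, edgeR) and the adaptor gene Shc1 by 1.03 ± 0.15 (SE, adjusted p = 1.60e-06, edgeR). For both, all 9 IZ libraries lay above every sham library, as for 16.6% of all genes tested. With total counts alone this list had 6 genes higher and 2 lower.

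Downstream, the PI3K, AKT and FOXO list had 17 tested genes, 4 higher and 9 lower, with a median of -0.43. Pik3cd, the catalytic subunit typical of leukocytes, had the highest value, 2.45 ± 0.27 (SE, adjusted p = 2.42e-08, edgeR). The macrophage markers were higher in the same libraries. Pik3r1, the regulatory subunit, and Foxo4, a transcription factor inhibited by AKT, had the lowest values, -1.13 ± 0.11 and -0.97 ± 0.16 (SE, adjusted p = 5.85e-09 and 7.89e-06, edgeR). With total counts alone they stood at -0.06 and 0.09, neither of them called, and the list had 12 genes higher and 0 lower. The mTOR complex 1 arm had 11 tested genes, 0 higher and 7 lower, with a median of -0.28. Tsc2, an inhibitor of the complex, and Mtor, its kinase, had the lowest values, -1.28 ± 0.19 and -0.93 ± 0.11 (SE, adjusted p = 1.86e-06 and 1.62e-07, edgeR). IZ replicate 1 had the highest Tsc2 level of the IZ, 43.1 CPM, and Tsc2 stood at -1.49 without it. Rps6kb1 (0.02) and Eif4ebp1 (-0.11), substrates of the kinase, were not called. With total counts alone this list had 9 genes higher and 0 lower, and its direction therefore depends on the scaling.

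Genes of the mannose 6-phosphate route, which tags lysosomal enzymes for transport by IGF2R, were all called higher, 4 of 4. Over all genes tested 36.3% were called higher. For none of these route genes did every IZ library lie above every sham library. M6pr, the smaller cation-dependent receptor, rose by 1.14 ± 0.15 (SE, adjusted p = 6.00e-07, edgeR), with 25.2 to 42.9 CPM in sham and 42.4 to 88.5 CPM in the IZ. Nagpa (0.71), Gnptab (0.59) and Gnptg (0.52), the enzyme genes that make the tag, had smaller differences (adjusted p = 0.0108, 0.00122 and 0.00261, edgeR). Igf2r itself stood at 0.52. The cell surface partners of IGFBP3, Lrp1 and Tmem219, were both higher, 2 of 2, against the same 36.3% of all genes tested. Lrp1, an endocytic receptor, ran from 90.9 to 160 CPM in sham and from 219 to 556 CPM in the IZ, with a log2 fold change of 1.85 ± 0.16 (SE, adjusted p = 1.08e-09, edgeR). Tmem219 had a log2 fold change of 1.19 ± 0.14 (SE, adjusted p = 1.26e-07, edgeR). Of the IGF mRNA-binding proteins, Igf2bp2 alone was tested and was not called (-0.04, adjusted p = 0.844). Exons of Stat5a, Irs1, Cish, Gnptg, Tsc2, Rps6kb1 and Tmem219 overlap genes on the opposite strand, and M6pr has a near-identical pseudogene, so their counts may hold reads of these neighbours.

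Within the 9 IZ libraries, each IGF gene was set against the summed levels of the macrophage, fibroblast and cardiomyocyte markers, 30 relations in all. By exact two-sided permutation of all 362880 pairings, 3 had an unadjusted p under 0.05 for Pearson's r and 3 for Spearman's rho, and 0 passed after Benjamini-Hochberg adjustment (lowest adjusted p = 0.249 for r). In size, r was largest for Igfbp4 and Igf2r, 0.811 and -0.808 with the cardiomyocyte markers and -0.788 and 0.773 with the macrophage markers. Without the 2 libraries farthest from the median of each marker sum, these values were -0.111, 0.241, 0.435 and -0.088. The lowest exact p was that of Igfbp6 and the fibroblast markers, with r = 0.759 (exact permutation p = 0.0173, adjusted p = 0.249) and rho = 0.817 (exact permutation p = 0.0108, adjusted p = 0.323). Without the 2 libraries farthest from the median of the marker sum, IZ replicates 1 and 2, r was 0.922. Without IZ replicate 1 alone, r was 0.946 (exact permutation p = 3.22e-04, adjusted p = 0.00967, n = 8), and it was the 1 relation of the 30 that passed by r. By rho, Igfbp3 and the macrophage markers passed as well without that library (rho = -0.952, adjusted p = 0.0171, exact permutation test), where the value over all 9 libraries was -0.483. Igf1 had r = 0.527 with the macrophage markers (exact permutation p = 0.150, adjusted p = 0.346) and rho = 0.550 (exact permutation p = 0.133), and r was 0.295 without the 2 farthest libraries. With the fibroblast markers Igf1 had r = 0.147 (exact permutation p = 0.709, adjusted p = 0.869) and rho = 0.167 (exact permutation p = 0.678), and r was -0.160 without the 2 farthest libraries. A relation of Igf1 to either list was thus not detectable with 9 libraries.

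Across all 17 libraries, the genes whose deviations from their group means ran most closely with each IGF gene were listed among 9331 genes averaging 10 CPM or more, as a description with no test. For Igf1 these were Zfp219 (r = 0.911), Abhd12 (0.790) and Shisa4 (0.761), and for Igf2 they were Gnai2 (0.903), Vamp3 (0.878) and Abhd16a (0.878). Igf1r ran with Pdcd7 (0.826), Dcaf5 (0.745) and Mfap1a (0.745), and Igf2r with Gm33312 (0.862), H3f3b (0.830) and Tmem165 (0.824). Among the binding proteins, Igfbp3 ran with Rrp8 (0.870), Kirrel (0.859) and Abce1 (0.853), and Igfbp4 with Add1 (0.858), Svil (0.834) and Adi1 (0.815). Igfbp5 ran with the matrix protein gene Mgp (0.746), Prrg2 (0.730) and Ncbp3 (0.696), and Igfbp6 with Elmsan1 (0.755), Gm48285 (0.718) and Timp3 (0.697). Igfbp7 ran with Pkd2 (0.790), the matrix proteoglycan gene Bgn (0.790) and Mmp23 (0.772). All points share the library depth and the scaling of their library.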

How the data were processed

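Hearts were profiled by MACE. Per the study's methods, the authors trimmed reads with Cutadapt 4.6, used molecular identifiers, mapped to mm10 and counted with HTSeq; the submitters' processing notes name bcl2fastq, Bowtie2, HTSeq and DESeq2. Strand and multi-mapping settings were not given in the sources used here. The deposited values are raw counts per gene, without normalization.

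Genes were located in GENCODE M21 (GRCm38, the build of the counts). Genes passing filterByExpr (minimum 10 counts) were tested with the two-sided quasi-likelihood F-test of edgeR 4.0.16 in R 4.3.3, with TMM scaling, no covariates and Benjamini-Hochberg adjustment over all 12301 genes (threshold 0.05). SEs derive from the F statistic. Log2 CPM used a prior count of 1. Shares and relations were tested by exact permutation with SciPy 1.17.1, NumPy 2.4.6 and pandas 2.3.3 in Python 3.11.15, and plots made with Matplotlib 3.10.9. Transcript ends (500 bases) were compared by BLAST 2.17.0, keeping 100 bases at 95% identity. Each library came from a separate mouse. No 2 libraries were copies, the closest pair differing by 2.56 times the sampling variance. Total counts ran from 1237675 to 4738307, and floors of 3 counts cover counting error only.

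The members, lists and tests were chosen with earlier results of these data known. Named were all 10 IGF genes, all genes of lists of up to 7 genes, the 2 highest and 2 lowest of longer lists with Insr, Irs1 and Irs2, and the 3 genes most like each tested member. The result of 1 gene that met this rule is not reported here. Alternatives were other scalings, DESeq2 1.42.0, other filters, medians, a prior count of 5, a replicate block and omission of each library. The test was checked on simulated counts with known changes in a small share of genes, in equal numbers up and down. Far more genes differed in the data, so that check does not bear on the choice of scaling.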

Additional observations from a re-analysis of the deposited data

Results flagged for a closer look

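Each group of libraries was searched for a single library far from the others by Dixon's criterion, which chance meets in about 1 of 20 groups; 12 of 108 groups met it. IZ replicate 1, the library with the high cardiomyocyte marker sum, accounted for 6 of them. In the IZ it was lowest for Igf2r, at 187 CPM, and highest for Igfbp4, at 241 CPM, for Cish, at 31.2 CPM, for Grb14, at 73.6 CPM, and for Tsc2, at 43.1 CPM. The Igfbp4 share of the binding protein counts was also highest there, at 16.03%. Sham replicate 5, the only sham library with Igfbp2 counts, stood out for Igfbp2 at 1.04 CPM and for its share at 0.175%. IZ replicate 6 stood out for Igfbp2 at 11.3 CPM and for its share at 0.569%. Sham replicate 3, the shallowest sham library, was highest for Stc1, at 12.7 CPM, and for Lrp1, at 160 CPM. The part of depth and cell makeup in these values was not tested.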

How the results depend on the processing

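The scaling decided some of the directions. With total counts alone, which moved the median gene by 1.07, the IGF genes called became 8 higher and 0 lower and the pathway genes 42 higher and 4 lower. Among the named genes, the sign turned for Igf2 (0.0163), Igfbp5 (1.03), Htra1 (0.88), Stat5a (0.0835), Irs1 (0.25), Foxo4 (0.0883), Mtor (0.13), Eif4ebp1 (0.95) and Igf2bp2 (1.05). Upper quartile scaling turned Igfbp5 (0.0536) and Igf2bp2 (0.0708), DESeq2 size factors turned Igfbp6 (-0.000160), and no filter turned Igf2bp2 (0.0152), all uncalled values near 0. With a minimum mean of 50 counts Igf2 was not tested, which left 0 IGF genes called lower. Igf1, Igf2r, Igfbp3, Igfbp4 and Igfbp7 were called higher in all 25 alternative fits.

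Leaving out 1 library gave 5 to 6 IGF genes higher, 1 to 1 lower, 15 to 19 pathway genes higher, 22 to 27 lower, 5 to 6 shares that differed and 0 to 1 relations that passed. The sign turned within the ranges of Igfbp5 (-0.11 to 0.0472), Igfbp6 (-0.15 to 0.10), Igf2bp2 (-0.11 to 0.0310), Rps6kb1 (-0.0560 to 0.0919), Stc2 (-0.18 to 0.27) and the Igf2r share (-0.0412 to 1.59 points), none of them called. The Igfbp2 share lost its call with medians, and the Igfbp3 share gained one without IZ replicate 7.

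Replicate numbers are shared by the groups but did not pair the libraries: correlations of deviations ran from -0.216 to 0.128 over 8 numbers, and 1 of 8 libraries correlated best with its own number. With the replicate block, 5 IGF genes were called higher and 1 lower, 15 pathway genes higher and 22 lower, and Stc2 turned to -0.00692. Depth limited Igfbp2, Igfals, Igfbpl1, Pappa2 and Stc1, which did not pass the filter on low counts. Igfbp2 was called higher by DESeq2 and by edgeR without that filter. These calls rest on its IZ counts and add no separate support.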
